A study of Rattus norvegicus with 6 samples.

Results

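A set of 10 genes of xenobiotic sensing and phase I oxidation was followed in rat kidney: the aryl hydrocarbon receptor gene Ahr, the repressor gene Ahrr, Tiparp, Cyp1a1, Cyp1b1, Por, Cyp2e1, Cyp2d4, Fmo1 and Aldh3a1. They were chosen by symbol, through the transcript accession that the array files give for each probe. Of the 10 genes, 9 had at least 1 probe (11 probes in all), 7 had a probe bright enough to be tested, and Cyp1a1 and Cyp1b1 had probes that no array read well above background. No probe accession matched Tiparp, which was not measured here. The 7 tested genes stood among 31637 genes tested, 12432 of them with a symbol. The tissue was renal cortex of male Sprague-Dawley rats of the Crl:CD(SD) stock, 5 weeks old when bought. One group of 3 rats received corn oil for 4 weeks, and the other group of 3 received tricresyl phosphate, an aryl phosphate ester used as a flame retardant and plasticiser, at 200 mg/kg per day for 4 weeks. RNA of each rat was hybridised to 1 Agilent array in 1 colour (Cy3), so the replicate is the animal.

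The aryl hydrocarbon receptor is a ligand-activated transcription factor that waits in the cytoplasm with Hsp90 and other chaperones. When it binds a ligand such as a dioxin or a polycyclic aromatic hydrocarbon, it moves to the nucleus, pairs with Arnt and binds DNA at a short core motif near its target genes. Cyp1a1, Cyp1a2 and Cyp1b1 are its classic targets, and Ahrr and Tiparp are targets whose products restrain the receptor in turn. In phase I metabolism, cytochrome P450 enzymes of the endoplasmic reticulum oxidise foreign compounds with electrons that Por passes on from NADPH, and flavin monooxygenases and aldehyde dehydrogenases carry out other oxidations.

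The promoters of Ahrr and Cyp1b1 are shown because these targets of the receptor lay at opposite ends of detection here, Ahrr being measured on all 6 arrays and Cyp1b1 on 0 of 6. Each run is the 250 bases before the annotated start, from RefSeq on build GRCr8, read 5′ to 3′ on the gene's own strand. Capitals mark the receptor's core motif, searched as GCGTG on the gene's strand and as CACGC for the other strand. Ahrr lies on the forward strand, with the window at chr1:30821969-30822218, and so does Cyp1b1, with the window at chr6:21094315-21094564.
Ahrr: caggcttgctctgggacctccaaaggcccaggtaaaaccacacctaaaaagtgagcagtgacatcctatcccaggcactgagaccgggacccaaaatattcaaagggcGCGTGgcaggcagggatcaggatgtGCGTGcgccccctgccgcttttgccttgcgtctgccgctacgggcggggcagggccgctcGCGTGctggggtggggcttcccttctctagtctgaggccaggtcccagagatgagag
Cyp1b1: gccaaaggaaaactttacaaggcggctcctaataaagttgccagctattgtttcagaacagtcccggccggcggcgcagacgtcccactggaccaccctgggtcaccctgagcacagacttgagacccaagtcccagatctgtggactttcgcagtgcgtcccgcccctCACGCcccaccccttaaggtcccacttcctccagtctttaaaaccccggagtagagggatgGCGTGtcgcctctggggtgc
Ahrr held 3 copies of the motif, at 142, 117 and 57 bases before its start, and Cyp1b1 held 2 copies, at 81 and 20 bases. RefSeq promoters were matched for 8 of the 10 genes, and 4 of the 8 held the motif: Ahrr, Cyp1b1, Tiparp with 1 copy, and Por. The motif occurred in 8666 of 33469 promoters of this length (25.9%), and 821 of them (2.45%) held 3 or more copies. Cyp1a1 and Aldh3a1 were not matched. These letters were not found in the windows of Ahr, Cyp2e1, Cyp2d4 and Fmo1.

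All 6 arrays were of similar quality. Of 61537 non-control probes, 43099 were well above background on at least 3 arrays and were kept. Levels correlated at 0.988 to 0.990 between animals of the same group and at 0.987 to 0.991 between groups. The precision is limited by the number of arrays, 3 per group. The other 5 arrays shared a slide and a scan, and the first corn oil array differed from them in slide, scan or both. Slide and scan were recorded as 1 label, so which of them differed was not told apart. The comparison called within the shared slide, or with a slide block, is the comparison without that animal. Genes that define renal cortex were bright on every array, among them the proximal tubule phosphate transporter gene Slc34a1, with levels from 8.21 to 8.61. Levels are log2 of the array's processed signal minus the array's 75th percentile, so a difference of 1 is a 2-fold change. They rank animals for 1 gene and do not rank genes, since probes differ in brightness.

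No gene of the set differed between the groups past the test. With limma and Benjamini-Hochberg adjustment over the 31637 genes, adjusted p-values of the 7 tested genes ran from 0.811 to 0.998, and 0 of 31637 genes (0%) passed at 0.05. Before adjustment, limma's p was below 0.05 for 1737 genes (5.49%) and for 0 of the 7. The groups did not overlap for 1 of the 7 genes, Fmo1, against 3727 of all genes (11.8%). The means of 3 genes were higher with tricresyl phosphate and those of 4 were lower, and the median difference was −0.0029, beside −0.038 over all genes tested. The 95% confidence intervals of the fold changes together reached from 0.468 to 1.73. Each of the 7 differences therefore has an interval that holds no change, and the widest intervals still allow changes of that size.

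Cyp1a1, the target most often read as a sign of receptor activation, was not well above background in any animal. Its probe gave processed signals of 4.59, 4.62 and 4.32 with corn oil and 5.87, 5.53 and 4.96 with tricresyl phosphate. On the same arrays the dimmest signal that counted as well above background lay between 16.5 and 22.3. The values are background readings, and no fold change can be drawn from them.

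Cyp1b1, which oxidises steroids and polycyclic hydrocarbons, was read by a pair of probes, and neither was well above background on any array. The first probe gave signals of 5.14, 8.85 and 13.3 with corn oil and 5.63, 4.34 and 10.8 with tricresyl phosphate. The second gave 4.61, 16.9 and 14.9 with corn oil and 4.46, 7.33 and 4.14 with tricresyl phosphate. In corn oil animals 2 and 3 the second probe came close to the detection bounds of those arrays, 17.5 and 16.5, without being called. Cyp1a2, the CYP1 enzyme typical of liver, was also not well above background on any array. Whether tricresyl phosphate changed any of these 3 transcripts below the detection bound was not detectable.

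**Figure D1:**
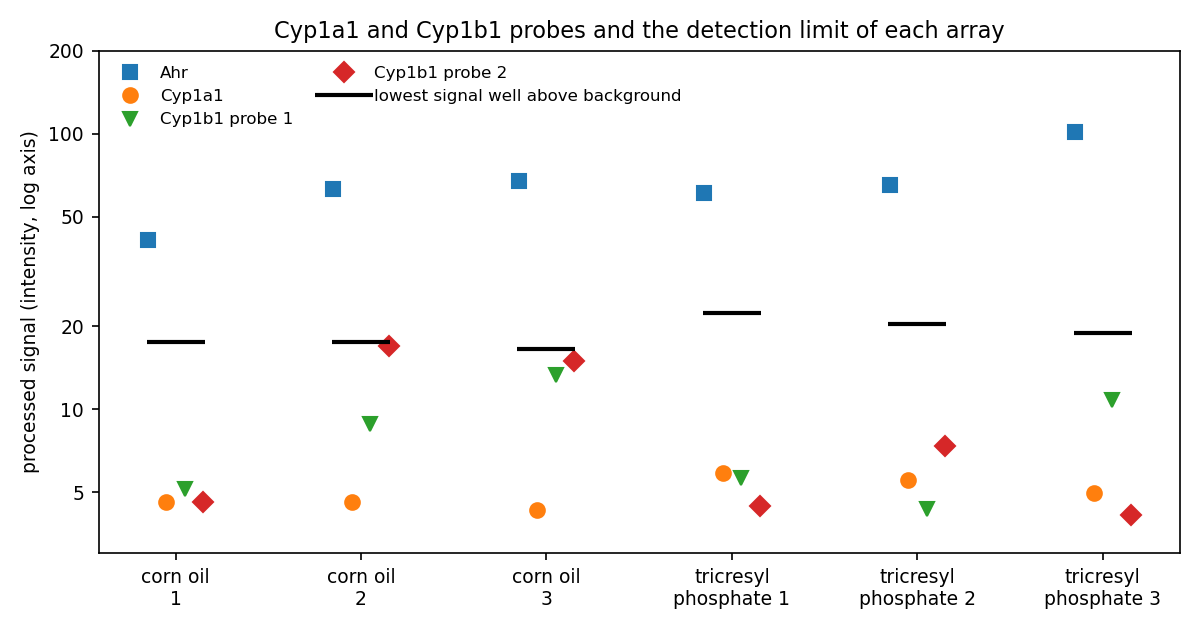
Processed signal (arbitrary units, log axis) of the probes of Cyp1a1, Cyp1b1 and Ahr on each of the 6 arrays, with the dimmest signal that was well above background on that array. The Cyp1a1 probe stayed between 4.32 and 5.87, below the bounds of 16.5 to 22.3, while the Ahr probe lay between 41.1 and 101.

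The receptor's own transcript was measured, though dimly, on all 6 arrays. Ahr had levels of −4.51, −4.19 and −3.93 with corn oil and −4.07, −4.11 and −3.58 with tricresyl phosphate. The third treated animal was the highest and the first corn oil animal the lowest, and the groups overlapped. The group means were −4.21 ± 0.29 (SD, n = 3) and −3.92 ± 0.29 (SD, n = 3). The difference of 0.29 (SE 0.21, 95% confidence interval −0.21 to 0.79) corresponds to a 1.22-fold higher mean, with an adjusted p of 0.814 in limma. An exact two-sided permutation test gave p = 0.4, where 0.1 is the smallest that 3 animals against 3 allow. The difference was 0.14 without the first corn oil animal, which is the comparison within the shared slide, 0.12 without the third treated animal and 0.10 with normexp background correction and quantile normalization.

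Ahrr, whose product competes with the receptor for Arnt, varied most among the animals of the 7 tested genes, with an SD of 0.42 over the 6 arrays. Its levels were −0.51, −0.97 and −1.29 with corn oil and −1.37, −1.76 and −1.02 with tricresyl phosphate. The second treated animal was the lowest and the first corn oil animal the highest, while the third animal of each group lay inside the other group's range. The means were −0.92 ± 0.39 and −1.38 ± 0.37 (SD, n = 3 each). The treated mean was 0.728 times the corn oil mean (log2 difference −0.46, SE 0.26, interval −1.10 to 0.18), with an adjusted p of 0.811 in limma and an exact permutation p of 0.2. The difference came to −0.25 within the shared slide and to −0.27 without the second treated animal.

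Of 16 listed chaperones, partners and co-regulators of the receptor, 13 were tested and 0 passed the adjusted test in limma. In 3 of them the treated mean was higher and in 10 lower, with a median difference of −0.033 that was between 0.009 and 0.013 after quantile, normexp or cyclic loess normalization and −0.093 within the shared slide. Arnt, the receptor's DNA-binding partner, had levels of −4.25, −4.14 and −3.79 with corn oil and −4.27, −4.09 and −3.85 with tricresyl phosphate. Arnt was picked out after its values were seen, and its difference was −0.009 (SE 0.17). The Hsp90 genes of the cytoplasmic complex, Hsp90aa1 and Hsp90ab1, differed by −0.088 (SE 0.17) and −0.076 (SE 0.16), and these turned to values from 0.004 to 0.030 under the same 3 normalizations and were −0.21 and −0.18 within the shared slide. The co-activator gene Crebbp (−0.11, SE 0.090) and Arnt2, the paralog of Arnt (−0.15, SE 0.12), overlapped between groups, and other kept probes of each gave differences of both signs.

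Of 20 other genes that respond to the receptor in some tissues, 14 were tested, and 7 were higher and 7 lower, with 0 past the adjusted test in limma. Cyp1a2, Serpinb2 and Il6 were well above background on 0 of 6 arrays. Ugt1a6, a glucuronosyltransferase gene of phase II, was the 1 gene of this list whose groups did not overlap. Its levels were 5.79, 5.85 and 5.75 with corn oil and 5.37, 5.33 and 5.08 with tricresyl phosphate. The treated animals were thus all lower, by 0.54 on average (SE 0.11), with an adjusted p of 0.811 in limma. Its other kept probes gave differences of −0.39 and −0.24, and since genes of the Ugt1a locus share their last exons, these probes may read other transcripts of that locus. Genes lower without overlap numbered 2511 (7.94%) and genes lower at an unadjusted p under 0.05 numbered 1220 (3.86%) over the whole table. The quinone reductase gene Nqo1, picked out after its value was seen, differed by −0.040 (SE 0.22). The glutathione transferase gene Gsta2 differed by −0.29 (SE 0.15) and its near-identical copy Gsta1 by 0.072 (SE 0.11). After quantile, normexp or cyclic loess normalization these were −0.18 to −0.15 and 0.20 to 0.21, and hybridisation to each other's probes cannot be told apart here. The cyclin gene Ccng2 differed by 0.11 (SE 0.099) with overlapping groups.

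**Figure D2:**
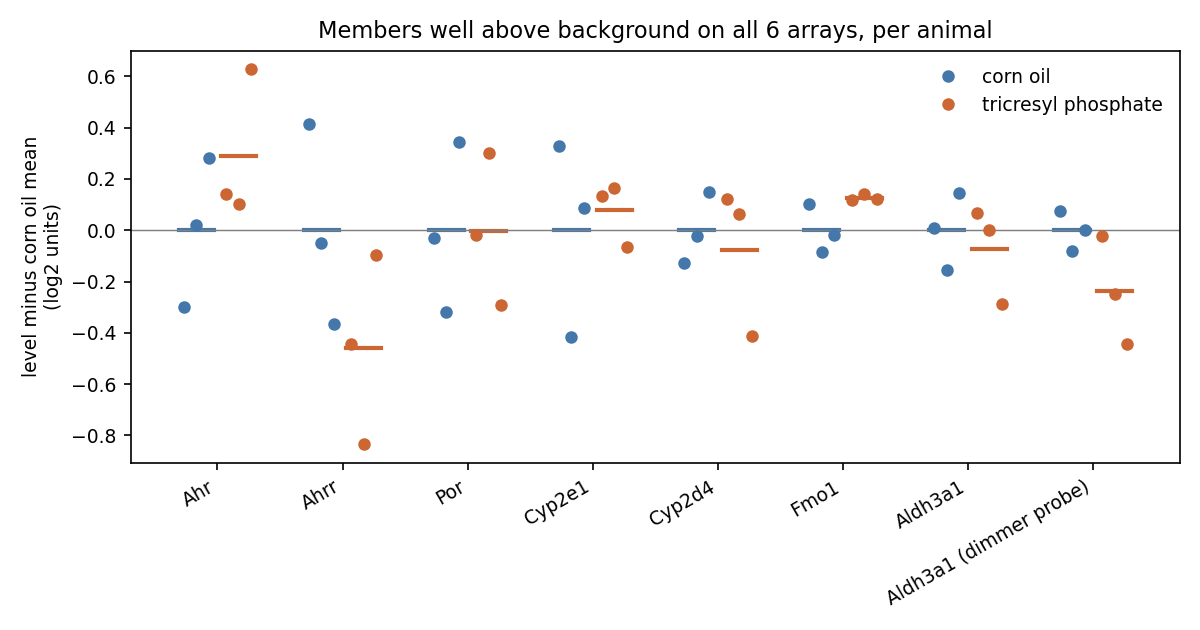
Level (log2 processed signal minus the array's 75th percentile) minus the corn oil mean, for each of the 7 tested genes in the 6 animals. A second, dimmer probe of Aldh3a1 has its own column. Points are animals and lines are group means (n = 3). The groups overlap in 6 genes, and in Fmo1 the 3 treated animals lie just above the corn oil animals. Before the subtraction of the corn oil mean, the Fmo1 levels were 5.58 to 5.61 and 5.38 to 5.57.

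The promoter of Por, the reductase gene on which all microsomal P450 enzymes depend, is shown because it held as many copies of the core motif as that of Ahrr. Its window is at chr12:26635810-26636059 on the reverse strand of GRCr8, and capitals again mark GCGTG or CACGC.
Por: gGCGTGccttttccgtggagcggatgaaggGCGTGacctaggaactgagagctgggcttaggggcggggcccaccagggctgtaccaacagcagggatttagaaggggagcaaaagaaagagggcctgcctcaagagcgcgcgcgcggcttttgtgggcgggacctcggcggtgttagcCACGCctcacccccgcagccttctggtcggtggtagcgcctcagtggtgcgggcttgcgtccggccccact
The copies lay 249, 220 and 71 bases before the start, in a window of 66.0% G and C, beside 62.0% for Ahrr and 59.2% for Cyp1b1. The Por transcript was bright on every array, with levels of 3.19, 2.90 and 3.56 with corn oil and 3.20, 3.52 and 2.93 with tricresyl phosphate. Each group held 1 high, 1 middle and 1 low animal, and the ranges nearly coincided. The means were 3.22 ± 0.33 and 3.21 ± 0.30 (SD, n = 3 each), a fold of 0.998 with a 95% confidence interval from 0.688 to 1.45. The adjusted p in limma was 0.998. The sign of so small a difference (−0.0029) turned under 6 alternatives, among them quantile normalization (0.044), and the value was −0.017 within the shared slide.

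All 11 listed electron donors besides Por (the cytochrome b5 genes and their reductases, the ferredoxin system and the Pgrmc genes) were tested. Of these 5 were higher, 6 were lower and 0 passed the adjusted test in limma, and the median of −0.060 turned to between 0.006 and 0.017 under the 3 other normalizations and to 0.008 within the shared slide. The mitochondrial ferredoxin gene Fdx2 was the 1 whose groups did not overlap, with a difference of −0.18 (SE 0.11), which was −0.10 to −0.11 under those normalizations and −0.091 within the slide. The cytochrome b5 gene Cyb5b differed by −0.28 (SE 0.20), but its other kept probe gave 0.17. The ferredoxin gene Fdx1 (−0.090, SE 0.089), Pgrmc1 (0.0015, SE 0.084) and the b5 reductase gene Cyb5r1 (−0.12, SE 0.14) overlapped between groups; under those normalizations they lay from −0.009 to 0.016, 0.10 to 0.11 and −0.050 to −0.027.

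Cyp2e1, which oxidises small solvents such as ethanol and acetone, was bright in every animal. Its levels were 6.49, 5.75 and 6.25 with corn oil and 6.30, 6.33 and 6.10 with tricresyl phosphate. The second corn oil animal stood lowest, and the treated animals lay inside the corn oil range. The means were 6.16 ± 0.38 and 6.24 ± 0.12 (SD, n = 3 each), and the difference of 0.078 (SE 0.20, interval −0.41 to 0.57) had an adjusted p of 0.943 in limma. It was −0.13 without the second corn oil animal, 0.24 within the shared slide and 0.19 to 0.21 after quantile, normexp or cyclic loess normalization.

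Cyp2d4, a member of the CYP2D family that metabolises many basic drugs, had levels of 1.46, 1.57 and 1.74 with corn oil and 1.71, 1.65 and 1.18 with tricresyl phosphate. The third treated animal was the lowest of the 6, and the others of its group lay inside the corn oil range. The means were 1.59 ± 0.14 and 1.51 ± 0.29 (SD, n = 3 each), and the difference was −0.076 (SE 0.17, interval −0.49 to 0.33) with an adjusted p of 0.935 in limma. It turned to 0.092 without the third treated animal and was −0.14 within the shared slide.

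Of 28 other genes of the CYP2 and CYP3 families, 14 were tested, with 6 higher, 8 lower and 0 past the adjusted test in limma. The median difference was −0.020, and it was 0.004 after quantile normalization, 0.024 after normexp, −0.001 after cyclic loess and −0.020 within the shared slide. Cyp2a3, Cyp2b1, Cyp2g1, Cyp3a9 and Cyp3a62 were well above background on 0 of 6 arrays. The paralogs Cyp2d5 and Cyp2d1 had the smallest unadjusted limma p-values of this list, 0.0228 and 0.0270. Cyp2d5 had levels of 4.62, 5.10 and 4.26 with corn oil and 3.88, 4.21 and 3.71 with tricresyl phosphate, and its difference of −0.72 (SE 0.24) had an adjusted p of 0.811. Every treated animal was below every corn oil animal, as for Cyp2d1, whose difference was −0.69 (SE 0.24). The groups nearly touched, with the closest corn oil and treated animals at 4.26 and 4.21 for Cyp2d5 and at 4.08 and 4.06 for Cyp2d1. These copies are nearly identical in sequence, so their probes may read each other's transcripts and the pair may amount to 1 measurement. After these values were seen, the change of Cyp2d4 was compared within arrays with that of each of its 4 tested paralogs, Cyp2d1, Cyp2d2, Cyp2d3 and Cyp2d5. The level of Cyp2d5 minus that of Cyp2d4 was 3.16, 3.53 and 2.52 with corn oil and 2.17, 2.56 and 2.54 with tricresyl phosphate, which overlap, and an exact permutation test gave p = 0.3. The exact permutation p was 0.2 for Cyp2d1, 0.8 for Cyp2d2 and 0.9 for Cyp2d3, and the adjusted values over the 4 pairs ran from 0.6 to 0.9. Cyp2d3 minus Cyp2d4 ran from −7.44 to −6.64, which put Cyp2d3 close to the detection bounds of −6.03 to −5.53. Its pair is therefore poorly measured, and nothing is drawn from its p. Cyp2t1, with a difference of 0.13 (SE 0.084), was the third gene of this list without overlap. Cyp2f4 differed by 0.37 (SE 0.20) with overlap.

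Fmo1, the main flavin monooxygenase of rat kidney, oxidises nitrogen and sulphur in drugs. Its levels were 5.57, 5.38 and 5.45 with corn oil and 5.58, 5.61 and 5.59 with tricresyl phosphate. All treated animals were above all corn oil animals, but the closest pair was almost level. Genes higher without overlap numbered 1216 (3.84%) over the whole table. The means were 5.46 ± 0.095 and 5.59 ± 0.013 (SD, n = 3 each). The treated mean was 1.09 times the corn oil mean (log2 difference 0.13, SE 0.087, interval −0.084 to 0.34), with an adjusted p of 0.814 in limma. An exact permutation test gave p = 0.1, the smallest possible. Quantile, normexp and cyclic loess normalization gave differences of 0.23, 0.24 and 0.22 with unadjusted limma p-values of 0.0355, 0.0317 and 0.0325. Genes under 0.05 in either direction numbered 1828, 1803 and 1748 of 31637 under these. In the 75th percentile scaling Fmo1 had an unadjusted limma p of 0.192, and genes higher under 0.05 made up 517 of all genes (1.63%). That share was not counted under the other 3. Other bright genes also moved up under them, such as Pgrmc1 (0.0015, then 0.10 to 0.11) and Akr1a1 (−0.006, then 0.11 to 0.12).

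Of the other flavin monooxygenases 4 were tested, with 1 higher, 3 lower and 0 past the adjusted test in limma. Their median difference was −0.17, or −0.14 to −0.11 after quantile, normexp or cyclic loess normalization and −0.13 within the shared slide. Fmo2 had a lower treated mean, by 0.26 (SE 0.13), and Fmo4 a higher one, by 0.062 (SE 0.14), and both overlapped between groups. These differences were not tested against that of Fmo1.

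Aldh3a1, which clears aromatic and lipid-derived aldehydes and is a target of the receptor in liver, was read by a brighter and a dimmer probe, both well above background on all 6 arrays. The brighter probe gave levels of −0.43, −0.60 and −0.30 with corn oil and −0.38, −0.44 and −0.73 with tricresyl phosphate. The third treated animal was the lowest and the groups overlapped. The means were −0.44 ± 0.15 and −0.52 ± 0.19 (SD, n = 3 each), with a difference of −0.074 (SE 0.13, interval −0.40 to 0.25) and an adjusted p of 0.918 in limma. It was 0.033 without the third treated animal and −0.16 with both probes averaged. The dimmer probe gave −3.71, −3.87 and −3.78 with corn oil and −3.81, −4.03 and −4.23 with tricresyl phosphate, a difference of −0.24 (SE 0.13) with overlapping groups.

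The other aldehyde dehydrogenases comprised 16 tested genes, of which 14 had lower and 2 higher treated means, with 0 past the adjusted test in limma. Their median difference was −0.070, but it lay between −0.005 and 0.013 after quantile, normexp or cyclic loess normalization. The mean level of the list per animal was 2.09 to 2.15 with corn oil and 2.02 to 2.03 with tricresyl phosphate, and an exact permutation test gave p = 0.1, the smallest possible, or 0.692 after Benjamini-Hochberg adjustment over 15 lists. Aldh16a1 was lower without overlap, by 0.25 (SE 0.093), yet its other probe gave 0.013 and the difference was −0.16 after those normalizations. The retinaldehyde dehydrogenase gene Aldh1a2 differed by −0.36 (SE 0.14) and Aldh3b1 by −0.43 (SE 0.21), both with overlapping groups. Aldh1a1 and Aldh7a1, the brightest of the list, differed by −0.025 (SE 0.13) and −0.11 (SE 0.11), and these became 0.090 to 0.10 and −0.001 to 0.030.

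**Figure D3:**
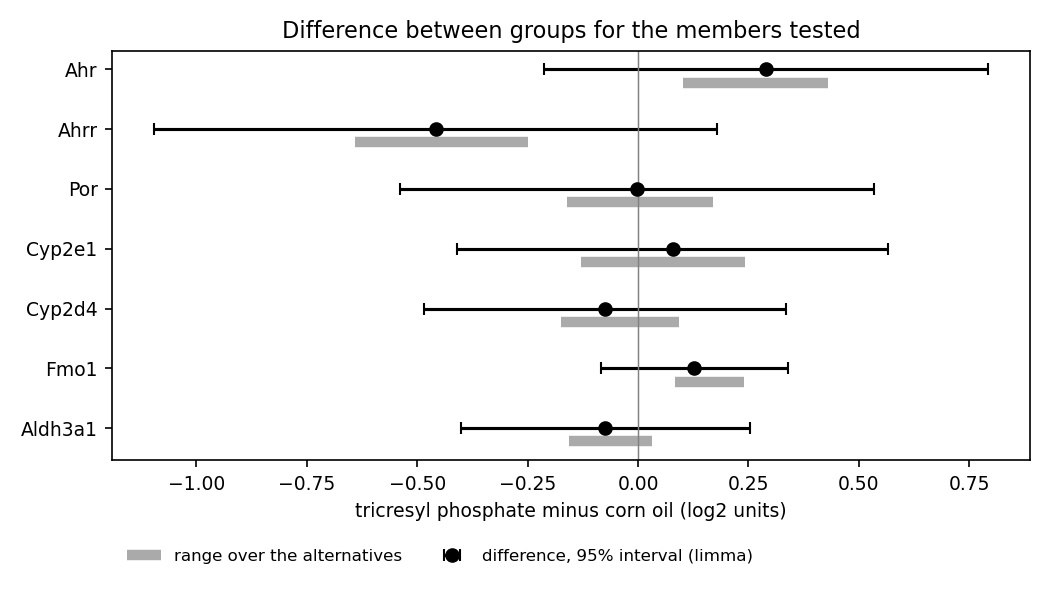
Difference in level (log2, tricresyl phosphate minus corn oil) of the 7 tested genes, with 95% confidence intervals from limma (3 arrays per group). Every interval includes 0, from −0.46 for Ahrr to 0.29 for Ahr at the extremes.

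A further list held 18 tested oxidoreductases and hydrolases of phase I, among them alcohol dehydrogenases, aldo-keto reductases, monoamine oxidases and epoxide hydrolases. Of these 11 were higher and 7 lower, with a median of 0.047 (0.089 to 0.098 after quantile, normexp or cyclic loess normalization) and 0 past the adjusted test in limma. The groups did not overlap for 2: the carbonyl reductase gene Cbr3 was higher by 0.27 (SE 0.091), and the aflatoxin aldehyde reductase gene Akr7a3 differed by −0.24 (SE 0.12), or by −0.12 after each of those normalizations. The monoamine oxidase gene Maob differed by 0.27 (SE 0.14) with overlap, and the bright gene Akr1a1 by −0.006 (SE 0.083), which was 0.11 to 0.12 after the 3 other normalizations. Over all 7 related lists, 90 of 119 listed genes were tested and 0 passed the adjusted test. Groups did not overlap for 9 of the 90 (10%, beside 11.8% of all genes), and 6 (6.67%, beside 5.49%) had an unadjusted p under 0.05 in limma.

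**Figure D4:**
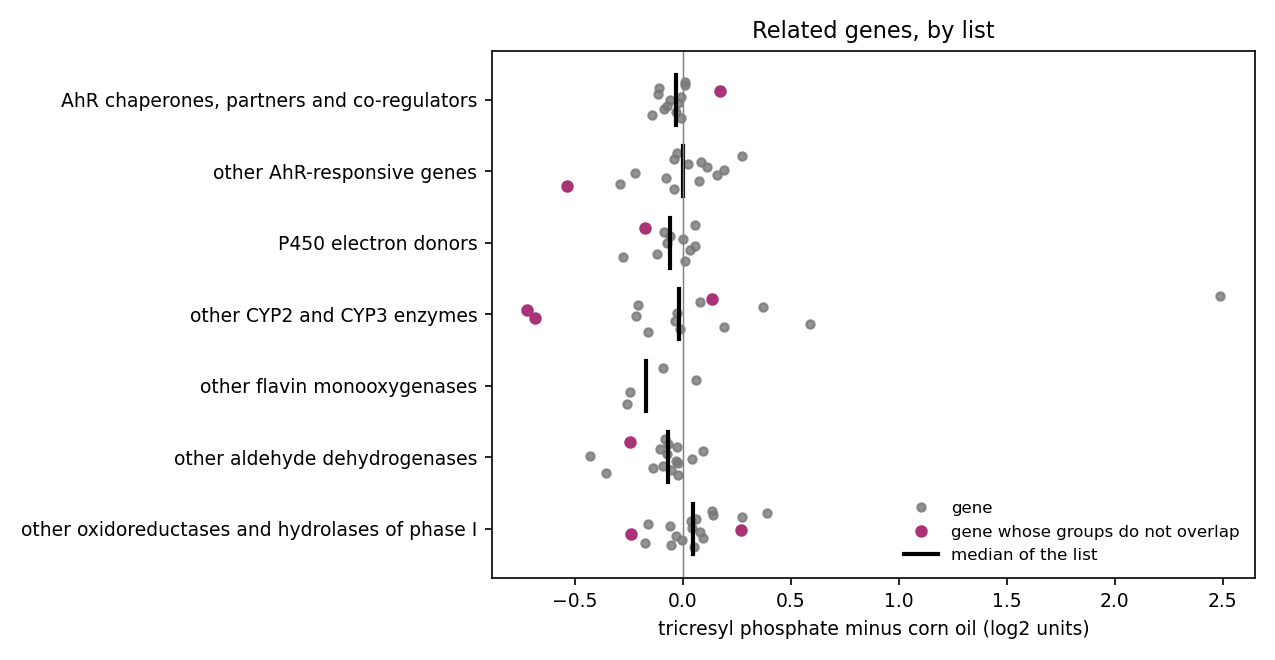
Difference in level (log2, tricresyl phosphate minus corn oil) of the tested genes in the 7 related lists, 1 point per gene, with the list medians. Most points lie near 0, and list medians run from −0.17 for the other flavin monooxygenases to 0.047 for the other oxidoreductases and hydrolases; the point at 2.49 is Cyp3a2, which was well above background in only 1 corn oil animal.

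Transcripts typical of liver varied among the kidneys, and the values are given because P450 genes such as Cyp2e1 are also strongly expressed in liver. In bulk tissue fewer cells of a type and less RNA per cell cannot be told apart. Of 20 hepatocyte markers 18 were tested, and Cps1 and Tat were well above background on 0 of 6 arrays. In corn oil animal 1, Fgg (−7.72) and Serpina1 (−6.46) lay below that array's detection bound of −5.74, so this animal's mean includes background readings. The mean level of the 18 markers ranged from −1.76 (corn oil animal 1) to 0.18 with corn oil and from −0.96 to −0.008 with tricresyl phosphate. It was highest in corn oil animal 2 and treated animal 3. Within their groups, 15 of the 18 were highest in corn oil animal 2 and 12 in treated animal 3. The albumin gene Alb, picked out after its values were seen, had levels of −2.47, 2.62 and −1.61 with corn oil and −0.11, −0.15 and 2.21 with tricresyl phosphate. The apolipoprotein gene Apoc3 was instead lowest in those animals, at 2.78 and 2.74, and the antithrombin gene Serpinc1 differed little, from 6.23 to 6.64 over the 6 animals. The transferrin gene Tf was the 1 marker whose groups did not overlap, with a difference of −0.60 (SE 0.19) and an adjusted p of 0.811 in limma. Those same animals, corn oil 2 and treated 3, had the lowest Cyp2e1, Por and Aldh3a1 levels of their groups, with both Aldh3a1 probes. The other tested members did not follow this. Fmo1 was lowest only in corn oil animal 2 and Cyp2d4 only in treated animal 3. Ahr and Ahrr were highest of the treated group in treated animal 3. The part of the liver transcripts in the results was not tested. Cyp3a2, picked out after its values were seen, was high in the same animals, at −1.93 and −1.42, against −7.95 to −4.18 in the other 4. It was well above background in 1 corn oil animal and in all 3 treated animals, so the other corn oil values are background readings and no fold is given. Markers of endothelium, a site of Cyp1a1 and Cyp1b1 expression in many organs, were measured for 9 genes, with mean levels of −0.21 to −0.038 with corn oil and −0.13 to 0.13 with tricresyl phosphate. Of the 9, 6 had higher and 3 lower treated means, and 3 (Flt1, Tie1 and Esam) were higher without overlap, beside 3.84% of all genes. Flt1 differed by 0.56 (SE 0.15; other probes 0.22 and 0.25), Tie1 by 0.25 (SE 0.084) and Esam by 0.25 (SE 0.092), each with an adjusted p of 0.811 in limma. The brightest endothelial genes, Kdr and Pecam1, differed by 0.028 (SE 0.12) and −0.066 (SE 0.13, other probe 0.18) and overlapped. For the mean level of the 9 genes, an exact permutation test gave p = 0.2, or 0.692 after Benjamini-Hochberg adjustment over 15 lists. The part of these cells in the results was not tested.

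**Figure D5:**
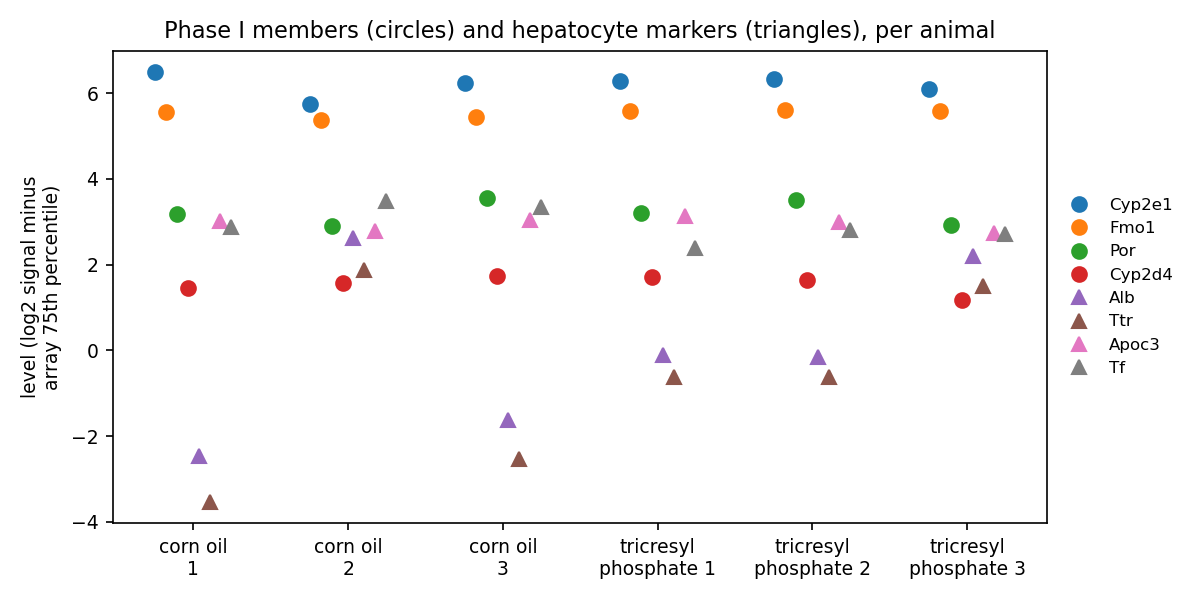
Levels (log2 processed signal minus the array's 75th percentile) of the liver transcripts Alb, Ttr, Apoc3 and Tf (triangles) and of Cyp2e1, Fmo1, Por and Cyp2d4 (circles) in each of the 6 animals. Alb reached 2.62 in corn oil animal 2 and 2.21 in treated animal 3, where Por was lowest in each group, at 2.90 and 2.93. Cyp2e1 was also lowest in both, while Fmo1 was lowest only in corn oil animal 2 and Cyp2d4 only in treated animal 3.

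As a description, the genes whose levels over the 6 arrays were most like those of Ahrr were Arpin, Sae1 and Agbl5, with Pearson correlations of 0.997, 0.994 and 0.991. For Ahr they were Proser3, Etv6 and Ubac1, at 0.997, 0.988 and 0.988. Over 6 arrays, 192 of 12418 named genes exceeded 0.9 with Ahrr and 154 with Ahr.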

How the data were processed

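The deposited scanner files hold 1-colour spot intensities; per the file headers they are Agilent Feature Extraction output, and per the submitters' processing notes version 10.7 was used. The intensity used was the processed signal, which the authors' scanner software had already background-subtracted. The authors' value table equalled it times 1 constant per array, within rounding. Here log2 of the signal was taken minus each array's 75th percentile, control and outlier spots were left out, and probes well above background on at least 3 of 6 arrays were kept. The brightest kept probe stood for a gene. Probes were named through RefSeq accessions (GRCr8 gene table), which gave 28206 probes a symbol and 33331 none.

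Groups were compared with limma 3.58.1 in R 4.3.3, with Benjamini-Hochberg adjustment over all 31637 genes at a threshold of 0.05. Intervals come from the same fit, and single values were tested with exact two-sided permutation tests in SciPy 1.17.1. The fit was tested on simulated data. The members and lists were chosen with earlier results of these data known. The genes named were all members and, of each list of related or marker genes, those with the 3 smallest p-values and the 2 highest levels, plus the 3 most like Ahr and the most variable member; some of these are not reported here, and any other is given as picked out after its values were seen or by a count of non-overlapping genes. The normexp alternative used the median spot signal, since the mean spot signal was not analysed here. Promoter motifs were searched in the 250 bases before the start only.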

Additional observations from a re-analysis of the deposited data

How the results depend on the processing

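For the 7 tested genes, 18 alternatives gave 0 members past the adjusted threshold (lowest adjusted p 0.693). Of these, 6 moved no member's difference by 0.001 or more (both probe filters, outlier spots kept, the variance model, the authors' table and the replicate block), and the slide block equals leaving out corn oil animal 1. The other 11 gave 77 differences, of which 68 kept their sign and 9 reversed. Ahr, Ahrr and Fmo1 kept their sign under these 11. Por reversed to 0.044 with quantile normalization, 0.060 with normexp and 0.051 with cyclic loess. With each animal left out in turn, the differences ranged from 0.12 to 0.43 for Ahr, −0.64 to −0.25 for Ahrr, −0.16 to 0.17 for Por, −0.13 to 0.24 for Cyp2e1, −0.17 to 0.092 for Cyp2d4, 0.085 to 0.18 for Fmo1 and −0.15 to 0.033 for Aldh3a1. Among them Por was 0.17 without corn oil animal 3, 0.0051 without treated animal 1 and 0.14 without treated animal 3, and Cyp2e1 was −0.13 without corn oil animal 2. Without treated animal 3, Cyp2d4 was 0.092 and Aldh3a1 was 0.033. The cause of these reversals was not tested. Over all genes 0 passed the threshold, but 2 did with normexp and 2 with a trended, robust variance model (Galnt3 and an unnamed transcript in both), and 0 to 1 with an animal left out (1 without treated animal 2 and 1 without treated animal 3). At an unadjusted p under 0.05 the count ranged from 1412 to 2174 with an animal left out. The mean level of the hepatocyte markers differed by 0.32 and ranged from −0.090 (without corn oil animal 1) to 0.88, that of the thick ascending limb markers from −0.038 (without treated animal 3; −0.028 without corn oil animal 2) to 0.10, and that of the mesangial markers from −0.13 to 0.034 (without corn oil animal 2; 0.0061 without treated animal 1). That of the proximal tubule S1 and S2 markers became 0.033 with quantile normalization. Deviations of same-numbered animals from their group means correlated at 0.086, −0.051 and −0.044 over the genes. With 3 animals per group, these values cannot settle whether the replicate numbers pair the animals. With a replicate block 0 genes passed, 1927 had an unadjusted p under 0.05 (1737 without it), and the smallest unadjusted limma p of a member was 0.0625, for Ahr. Transcripts near background, above all Cyp1a1 and Cyp1b1, are limited by signal over background, and the others by 3 arrays per group.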
